A study of Mus musculus with 27 samples.

Results

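Gene expression was compared between CD11b+Ly6C+ monocytes sorted from tumour-bearing mouse lung and the same gate from wild-type (WT) lung, in 4 of the 27 RNA sequencing libraries of the study. The members were the libraries whose labels name this cell type. There were 2 from tumour lung, replicates 4 and 5, and 2 from WT lung, replicates 3 and 4, numbered as in their titles. All mice were C57BL/6. Tumour lungs carried growths of HKP1 cells, a mouse lung cancer line, which had been injected into the tail vein and left until day 20 to 25. The WT lungs carried no tumour. Lungs were perfused and dissociated, and the same sorter and library kit are given for both groups. The labels name no marker that was excluded from the gate. The labels do not say whether libraries came from separate or pooled animals, so every p-value measures only the spread between these libraries.

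Ly6C-high monocytes are made in the bone marrow, leave it through the chemokine receptor CCR2 and enter inflamed or tumour-bearing tissue. There they lose Ly6C and turn on genes of macrophages or of antigen-presenting cells. In lung they share their niche with patrolling Ly6C-low monocytes, alveolar and interstitial macrophages, dendritic cells, neutrophils and natural killer (NK) cells, several of which carry CD11b as well.

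Itgam, Ccr2 and Csf1r, taken as markers of the sorted monocytes, were expressed in all 4 libraries and did not set the groups apart. Of their products, the labels name CD11b for the gate. Levels are FPKM, fragments mapped per length of transcript and per size of library, which allows levels of different genes to be compared. Itgam, which encodes CD11b, stood at 223 and 148 FPKM in tumour and 145 and 148 in WT libraries. Tumour replicate 4 was above the other 3 libraries, which lay close together. Ccr2 stood at 123 and 144 FPKM in tumour and 162 and 103 in WT libraries, and the growth factor receptor gene Csf1r at 294 and 276 FPKM in tumour and 302 and 245 in WT libraries. In both genes the groups overlapped. Ccr2 averaged 21.5 ± 3.53 FPKM in tumour macrophages (mean ± SD, n = 3) and 0.948 ± 0.162 in tumour neutrophils (n = 3), so that it marked the monocyte libraries apart from the other myeloid sorts. Ly6c1 and Ly6c2 were not found among the gene symbols, so the Ly6C part of the gate was not checked.

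The 4 libraries were of similar breadth but did not form a tight pair of groups. Each had between 10020 and 10238 genes at 1 FPKM or more. Pearson correlations of log2(FPKM + 1) across the 10366 genes tested were 0.970 between the tumour libraries and 0.962 between the WT libraries. Tumour replicate 5 correlated with WT replicate 4 at 0.961, about as closely as the WT libraries did with each other, whereas tumour replicate 4 correlated with the WT libraries at 0.907 and 0.919. Genes are not independent replicates, and these values only describe the libraries. The median gene had an SD of 0.155 between the tumour and 0.190 between the WT libraries on the log2 scale, within the range of 0.0880 to 0.204 found in the other 8 groups of the series.

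Markers of other cell types were present, in amounts that differed widely between libraries, within groups too. Endothelial markers summed to 182 and 488 FPKM in tumour replicates 4 and 5 and to 1568 and 1039.5 in WT replicates 3 and 4 (19 genes). Alveolar type II markers summed to 166 and 256 and to 2469.5 and 524 (11 genes), with WT replicate 3 far above the rest. Neutrophil markers summed to 725 and 533 and to 313 and 3227 (16 genes), and here WT replicate 4 stood apart. NK cell markers were at 883 and 1895 and at 953 and 2289 (9 genes), so that tumour replicate 5 and WT replicate 4 were the high pair. Macrophage markers summed to 5932 and 3407 and to 1533 and 1971 (19 genes). Their part in the results that follow was not tested. In bulk RNA, fewer cells of a type and less RNA per cell cannot be told apart.

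**Figure D1:**
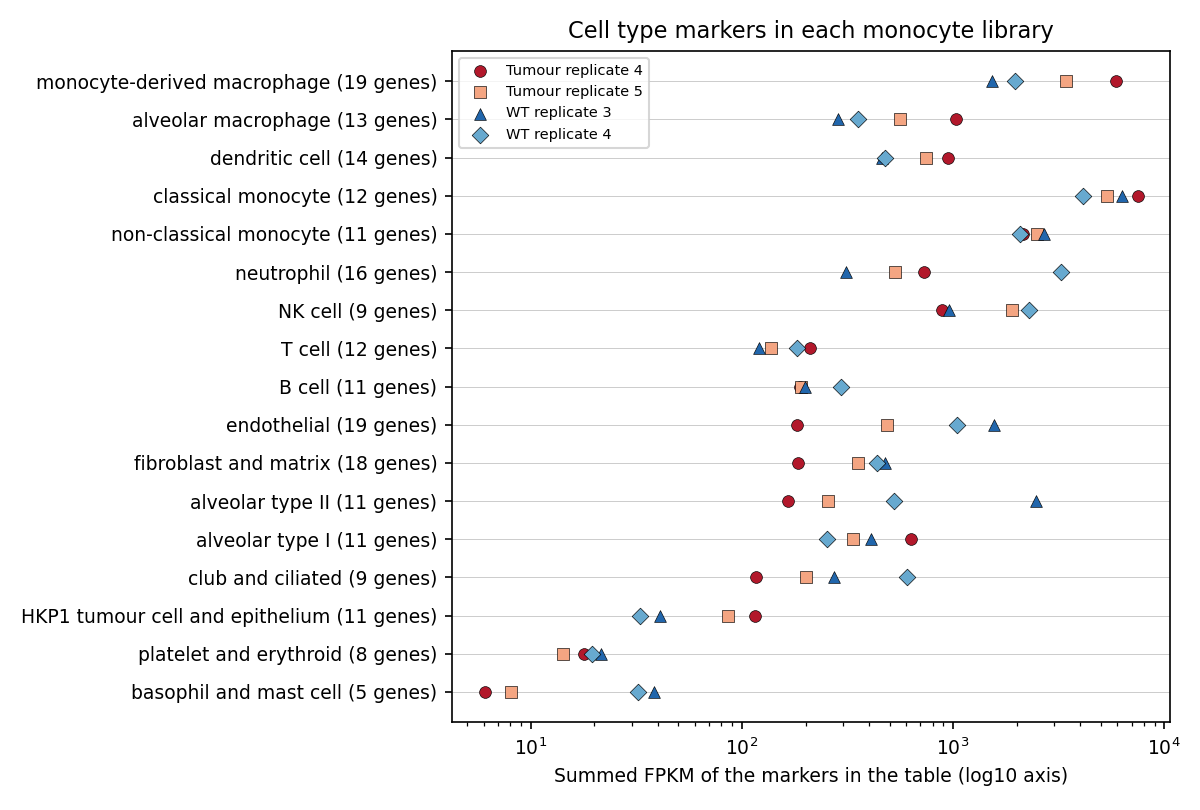
Summed FPKM of the marker genes of each cell type (horizontal log10 axis) in the 4 monocyte libraries, 1 symbol per library, with the number of markers found in brackets. Endothelial, alveolar type II and basophil markers were higher in both WT libraries, macrophage markers higher in both tumour libraries, neutrophil markers highest in WT replicate 4, and NK markers higher in tumour replicate 5 and WT replicate 4.

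Tumour monocytes had higher levels of chemokine, interleukin 1 ligand, MHC class II and macrophage genes than WT monocytes. Levels of surfactant and endothelial genes were lower. Mmp12, Ccl17, Atp6v0d2, Spp1, Inhba, Clec4n and Krt19 were among the genes with the widest gap above WT. Sftpc, Cldn5 and the fatty acid receptor gene Cd36 were among those with the widest gap below. By limma on log2(FPKM + 1), 0 of 10366 genes passed an adjusted p of 0.05 in either direction (0% called; lowest adjusted p = 0.0911), while 744 genes were higher (7.18%) and 815 lower (7.86%) at an unadjusted p under 0.05. In 2447 genes (23.6%) both tumour libraries lay above both WT libraries, and in 2554 (24.6%) both lay below. In the other 5365 the groups overlapped. Genes are called separated here where the nearer libraries of the groups were at least 1 apart on the log2 scale, a gap that has no test. There were 116 such genes higher in tumour (1.12%) and 121 lower (1.17%). Fitted together with the other 8 groups of the series, which share their spread and add residual degrees of freedom, 540 genes were called higher (5.21%) and 612 lower (5.9%). Of 6025 tested genes with at least 10 FPKM in a monocyte group, 119 are listed at exactly 0 in a library of another group, abundant ones among them, and such a 0 can be a failed estimate. Without those 119 genes the fit called 499 higher and 588 lower. The counts given below for gene lists are to be read against the percentages above, which cover all genes tested.

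Tumour replicate 4 carried the larger difference in most of the separated genes. Of the 116 higher ones, 107 (92.2%) were higher in replicate 4 than in replicate 5, against 50.2% of all genes tested. Of the 121 lower ones, 9 (7.44%) were. The median higher gene lay 2.61 above the WT mean in replicate 4 and 1.82 above it in replicate 5, on the log2 scale, and the median lower gene lay at -2.18 and -1.40. Leaving out a library can only keep or raise the number of separated genes, so the counts that follow do not show how stable they are. Without tumour replicate 5 the separated genes numbered 401 higher and 463 lower, and 87 and 74 genes passed limma. Without tumour replicate 4 the separated genes numbered 122 and 140, and none passed limma, with 285 higher and 341 lower at an unadjusted p under 0.05.

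**Figure D2:**
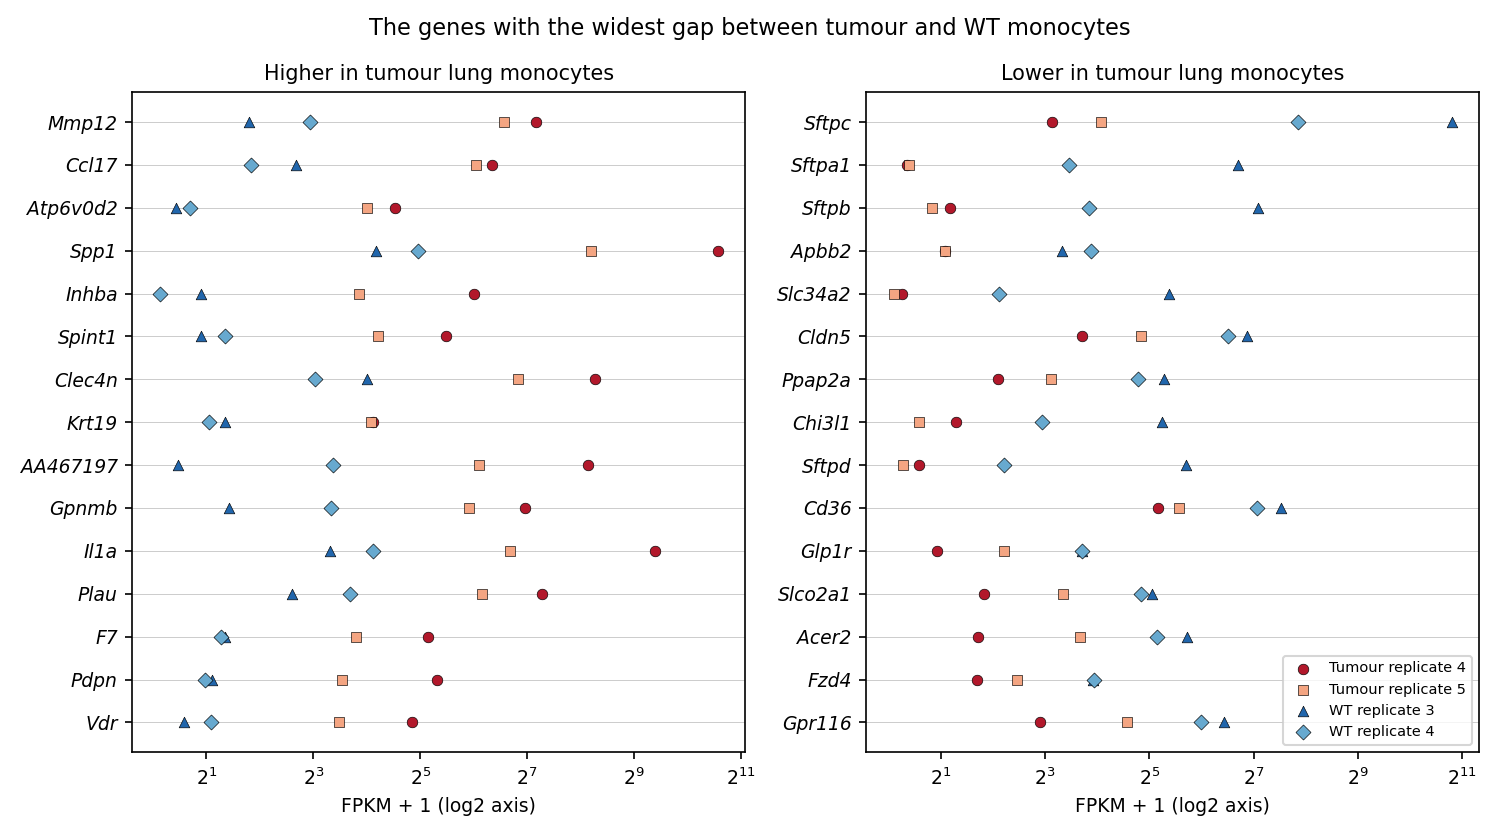
FPKM + 1 (horizontal log2 axis) of the 15 genes with the widest gap between groups in each direction, 1 symbol per library. In all 30 genes the tumour symbols lie on one side of the WT symbols, and tumour replicate 4 is the farther one from WT in most.

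Genes of secreted matrix proteins and proteases were among the widest gaps above WT. Mmp12, the macrophage elastase, stood at 144 and 94.00 FPKM in tumour and 2.46 and 6.64 in WT libraries (limma, log2 change 4.51, SE 0.42, adjusted p = 0.131). Both tumour libraries were far above both WT libraries. Spp1, which encodes osteopontin, stood at 1517 and 293 FPKM in tumour and 17.1 and 30.1 in WT libraries (limma, log2 change 4.82, SE 0.76, adjusted p = 0.178), and the tumour libraries themselves lay more than 1 log2 unit apart. Plau, the urokinase that activates plasmin, stood at 154 and 70.1 FPKM in tumour and 5.04 and 11.8 in WT libraries, and the membrane collagenase gene Mmp14 at 74.3 and 32.3 FPKM in tumour and 4.89 and 7.88 in WT libraries. F7, which encodes coagulation factor VII, stood at 34.3 and 12.9 FPKM in tumour and 1.53 and 1.41 in WT libraries. In each of these 3 genes replicate 4 was the highest library and WT was low in both. Of the 18 genes listed as matrix proteases and inhibitors, 5 were separated higher and 0 lower, 7 overlapped, and the median log2 change was 0.85, against 0.00 over all genes. The median was 1.40 without tumour replicate 5 and 0.31 without replicate 4. Plaur, the urokinase receptor gene, was high throughout at 514 and 451 FPKM in tumour and 371 and 374 in WT libraries. Mmp9, known from neutrophils, stood at 6.66 and 1.35 FPKM in tumour and 3.67 and 16.6 in WT libraries and overlapped.

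Interleukin 1 ligands were higher in tumour monocytes, and their inflammasome partners were not uniformly so. Il1b stood at 5167 and 1383 FPKM in tumour and 263 and 116 in WT libraries (limma, log2 change 3.93, SE 0.68, adjusted p = 0.178). The lower tumour library was still several times the higher WT library. Il1a stood at 672 and 102 FPKM in tumour and 8.95 and 16.3 in WT libraries (limma, log2 change 4.32, SE 0.86, adjusted p = 0.182), with replicate 4 above replicate 5 by more than 2 log2 units. Il1rn, the secreted receptor antagonist, was at 327 and 138 FPKM in tumour and 14.8 and 63.8 in WT libraries, and the decoy receptor gene Il1r2 at 158 and 93.7 FPKM in tumour and 31.4 and 38.9 in WT libraries. Ligands, antagonist and decoy were thus all separated in the same direction. Nlrp3, the inflammasome sensor, stood at 239.9 and 151 FPKM in tumour and 86.3 and 70.3 in WT libraries, above WT in both libraries but by less than 1 log2 unit. Casp1, the protease that cleaves interleukin 1 beta, stood at 53.8 and 55.5 FPKM in tumour and 59.5 and 49.1 in WT libraries and overlapped, as did Casp4 and the adaptor gene Pycard. Of the 11 genes of the system, 4 were separated higher and none lower, 5 overlapped, and the median log2 change was 0.18. The median was 0.37 without tumour replicate 5, 0.06 without replicate 4, 0.29 without WT replicate 4 and 0.73 among the members left by a filter at 5 FPKM.

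Other inflammatory mediators were higher mainly in replicate 4. Tnf stood at 977 and 343 FPKM in tumour and 74.4 and 153 in WT libraries, Osm, which encodes oncostatin M, at 1383 and 665 FPKM in tumour and 366 and 241 in WT libraries, and Ptgs2, the inducible cyclooxygenase, at 617 and 145 FPKM in tumour and 65.9 and 58.7 in WT libraries. In all of them both tumour libraries were above WT and replicate 4 was the highest. Inhba, the activin A subunit, stood at 63.1 and 13.5 FPKM in tumour and 0.865 and 0.0977 in WT libraries (limma, log2 change 4.41, SE 0.71, adjusted p = 0.178), close to 0 in WT. Il6 stood at 146 and 11.6 FPKM in tumour and 13.9 and 11.97 in WT libraries: only replicate 4 was high, and replicate 5 was at the WT level. Arg1, the arginase of alternatively activated macrophages, was separated higher but spread over all libraries, at 598 and 58.8 FPKM in tumour and 0.604 and 24.4 in WT libraries. Of 13 tested genes of alternative activation and arginine use, 8 were higher in both tumour libraries, against 23.6% of all genes. Of the 13, 1 was lower and 2 were separated, and the median log2 change was 1.26. Il6 and Arg1 were among the 6 that differed most between the tumour libraries. Tgfb1 was at 180.3 and 161 FPKM in tumour and 134 and 131 in WT libraries, a small difference in the same direction. Of 15 tested mediators of 20 listed, 11 had both tumour libraries above both WT libraries, 1 had them below, and 3 were separated. Their median log2 change was 1.31, and it was 2.20 without tumour replicate 5 and 0.63 without replicate 4. Socs3, the feedback inhibitor of interleukin 6 type signalling, stood at 584 and 233 FPKM in tumour and 70.2 and 60.9 in WT libraries. That put both tumour libraries above both WT libraries by 2.48 on the log2 scale on average.

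Chemokine ligands were higher in tumour monocytes, with a median log2 change of 1.90 over 17 genes. In 14 of the 17 both tumour libraries lay above both WT libraries, against 23.6% of all genes tested, and in none below. Of the 17, 8 were separated higher, against 1.12%. Ccl17, a ligand of CCR4 made by antigen-presenting cells, stood at 80.4 and 65.4 FPKM in tumour and 5.42 and 2.55 in WT libraries (limma, log2 change 3.94, SE 0.32, adjusted p = 0.0918). The tumour libraries agreed within 0.5 log2 units on it. Its partner ligand gene Ccl22 stood at 17.5 and 22.9 FPKM in tumour and 1.15 and 4.92 in WT libraries. Ccl12, a ligand of CCR2, stood at 36.8 and 15.8 FPKM in tumour and 0.257 and 2.48 in WT libraries, and Ccl7 at 131 and 29.3 FPKM in tumour and 12.3 and 19.1 in WT libraries. Cxcl16 stood at 214 and 113 FPKM in tumour and 26.2 and 35.9 in WT libraries, and the neutrophil attractant gene Cxcl1 at 276 and 51.03 FPKM in tumour and 6.88 and 13.8 in WT libraries. All were lowest in a WT library, and Cxcl1 was more than 2 log2 units higher in replicate 4 than in replicate 5. Cxcl2, the most abundant of the list in replicate 4, stood at 3112 and 1068 FPKM in tumour and 746 and 539 in WT libraries. Ccl3 was high everywhere, at 1606 and 1544 FPKM in tumour and 1199 and 1454 in WT libraries. Ccl2 overlapped, at 428 and 172 FPKM in tumour and 272 and 125 in WT libraries. Ccl5, itself 1 of the NK cell markers, overlapped too, at 387 and 727 FPKM in tumour and 335 and 946 in WT libraries. Like the NK marker sum, which contains it, Ccl5 was higher in tumour replicate 5 and WT replicate 4.

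Among chemokine receptors, Ccr1 stood higher in tumour monocytes while Ccr2, Cxcr4 and Cx3cr1 overlapped. Ccr1, a receptor for several inflammatory CC chemokines, stood at 93.7 and 35.7 FPKM in tumour and 15.9 and 17.5 in WT libraries. Cxcr4, the receptor that holds cells in marrow, stood at 579.5 and 515 FPKM in tumour and 618 and 422 in WT libraries. Cx3cr1, the fractalkine receptor of patrolling monocytes, stood at 22.3 and 36.02 FPKM in tumour and 44.9 and 33.95 in WT libraries. Of 12 tested receptors, 8 overlapped, against 5365 of all 10366 genes tested. Another 3 were higher in both tumour libraries and 1 was lower.

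MHC class II genes were higher in tumour monocytes, and here the tumour libraries lay close together. These genes encode the heterodimers that present extracellular peptides to CD4 T cells, and they are switched on together by the coactivator CIITA. H2-Aa stood at 2292 and 2038 FPKM in tumour and 617 and 736 in WT libraries (limma, log2 change 1.68, SE 0.17, adjusted p = 0.131), H2-Ab1 at 2188 and 2099 FPKM in tumour and 529.8 and 726 in WT libraries and H2-Eb1 at 1373 and 1194 FPKM in tumour and 262 and 375 in WT libraries (limma, log2 change 2.03, SE 0.22, adjusted p = 0.131). Tumour replicates 4 and 5 were nearly level, and both were well above either WT library. Cd74, the invariant chain, stood at 5533 and 4843 FPKM in tumour and 2039 and 2306 in WT libraries, and Ciita itself at 25.8 and 31.9 FPKM in tumour and 10.8 and 13.7 in WT libraries. H2-DMa and H2-DMb1, the chains of the peptide editor, stood at 216 and 224 FPKM in tumour and 125 and 132 in WT libraries, and at 207 and 201 FPKM in tumour and 84.3 and 80.8 in WT libraries. H2-Oa and H2-Ob, the chains of the inhibitor of that editor and typical of B cells, went the other way or overlapped, at 10.1 and 11.5 FPKM in tumour and 9.88 and 14.6 in WT libraries, and at 18.3 and 19.6 FPKM in tumour and 23.1 and 24.96 in WT libraries. Of the 11 genes, 5 were separated higher, 9 had both tumour libraries above both WT libraries and 1 had them below. The median log2 change was 1.17, and lay between 1.03 and 1.26 with any library left out. In the fit of all 10 groups 4 were called higher, against 5.21% of all genes tested.

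The promoters of these genes are shown because class II genes are known to share a conserved upstream module that ends in a Y box, an inverted CCAAT motif. Each sequence holds the 150 bases before the gene start, read 5′ to 3′ on the gene's strand, from RefSeq on GRCm38.p6, and capitals mark TGATTGG.
H2-Aa: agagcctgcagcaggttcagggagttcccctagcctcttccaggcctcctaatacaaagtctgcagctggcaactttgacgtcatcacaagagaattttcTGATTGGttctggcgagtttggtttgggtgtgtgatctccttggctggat
H2-Eb1: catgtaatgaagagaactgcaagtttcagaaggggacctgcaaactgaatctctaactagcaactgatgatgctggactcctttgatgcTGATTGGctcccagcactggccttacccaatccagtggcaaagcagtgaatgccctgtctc
H2-DMb1: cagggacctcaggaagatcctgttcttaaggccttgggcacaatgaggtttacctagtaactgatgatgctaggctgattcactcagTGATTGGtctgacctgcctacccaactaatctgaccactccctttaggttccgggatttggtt
H2-Oa: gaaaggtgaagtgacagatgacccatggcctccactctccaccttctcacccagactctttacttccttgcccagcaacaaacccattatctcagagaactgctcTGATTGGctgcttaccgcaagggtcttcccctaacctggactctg
H2-Ob: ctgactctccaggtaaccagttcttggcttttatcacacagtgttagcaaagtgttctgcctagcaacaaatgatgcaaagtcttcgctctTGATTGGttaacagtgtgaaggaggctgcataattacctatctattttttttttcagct

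These windows lie at chr17:34287824-34287973 on the minus strand for H2-Aa and, on the plus strand, at chr17:34305717-34305866, chr17:34153041-34153190, chr17:34092229-34092378 and chr17:34238755-34238904. The motif TGATTGG, or its reverse complement CCAATCA, was searched after the values were seen, on both strands, from 250 bases before to 50 after the start. It begins 50, 61, 63, 45 and 59 bases upstream of the start in the genes as printed. Of the 13 listed genes 10 had a window, and 7 of those 10 held the motif. Counted by window, it was in 7 of 11 (63.6%), against 7.82% of 32851 promoter windows of the same length. It was absent from the windows of H2-DMa, Ctss and Ifi30, although H2-DMa stood higher in both tumour libraries. The motif was present in H2-Aa, H2-Eb1 and H2-DMb1, which stood higher in tumour monocytes, and equally in H2-Oa and H2-Ob, which did not. A match is a description of letters and not of binding.

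Costimulatory and checkpoint genes stood higher as well, most of all in replicate 4. Cd86, the ligand of CD28, stood at 39.6 and 23.8 FPKM in tumour and 17.5 and 15.6 in WT libraries, and its relative Cd80 at 107 and 26.3 FPKM in tumour and 12.3 and 20.9 in WT libraries. Cd83, a marker of maturing antigen-presenting cells, stood at 505 and 302 FPKM in tumour and 180.4 and 122 in WT libraries. Cd274, which encodes PD-L1, stood at 118 and 41.8 FPKM in tumour and 21.7 and 23.6 in WT libraries, so that replicate 4 was well above the other 3 libraries. Cd40 was nearly level at 22.9 and 24.5 FPKM in tumour and 18.7 and 20.1 in WT libraries. Of 11 genes, 9 had both tumour libraries above both WT libraries and none was separated by 1 log2 unit. The median log2 change was 1.14, and it was 0.70 without tumour replicate 4 and 0.69 with a pseudocount of 5. Lgals9, a secreted galectin that binds TIM-3, was the member with both tumour libraries below WT, at 109 and 119 FPKM in tumour and 143 and 127 in WT libraries.

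**Figure D3:**
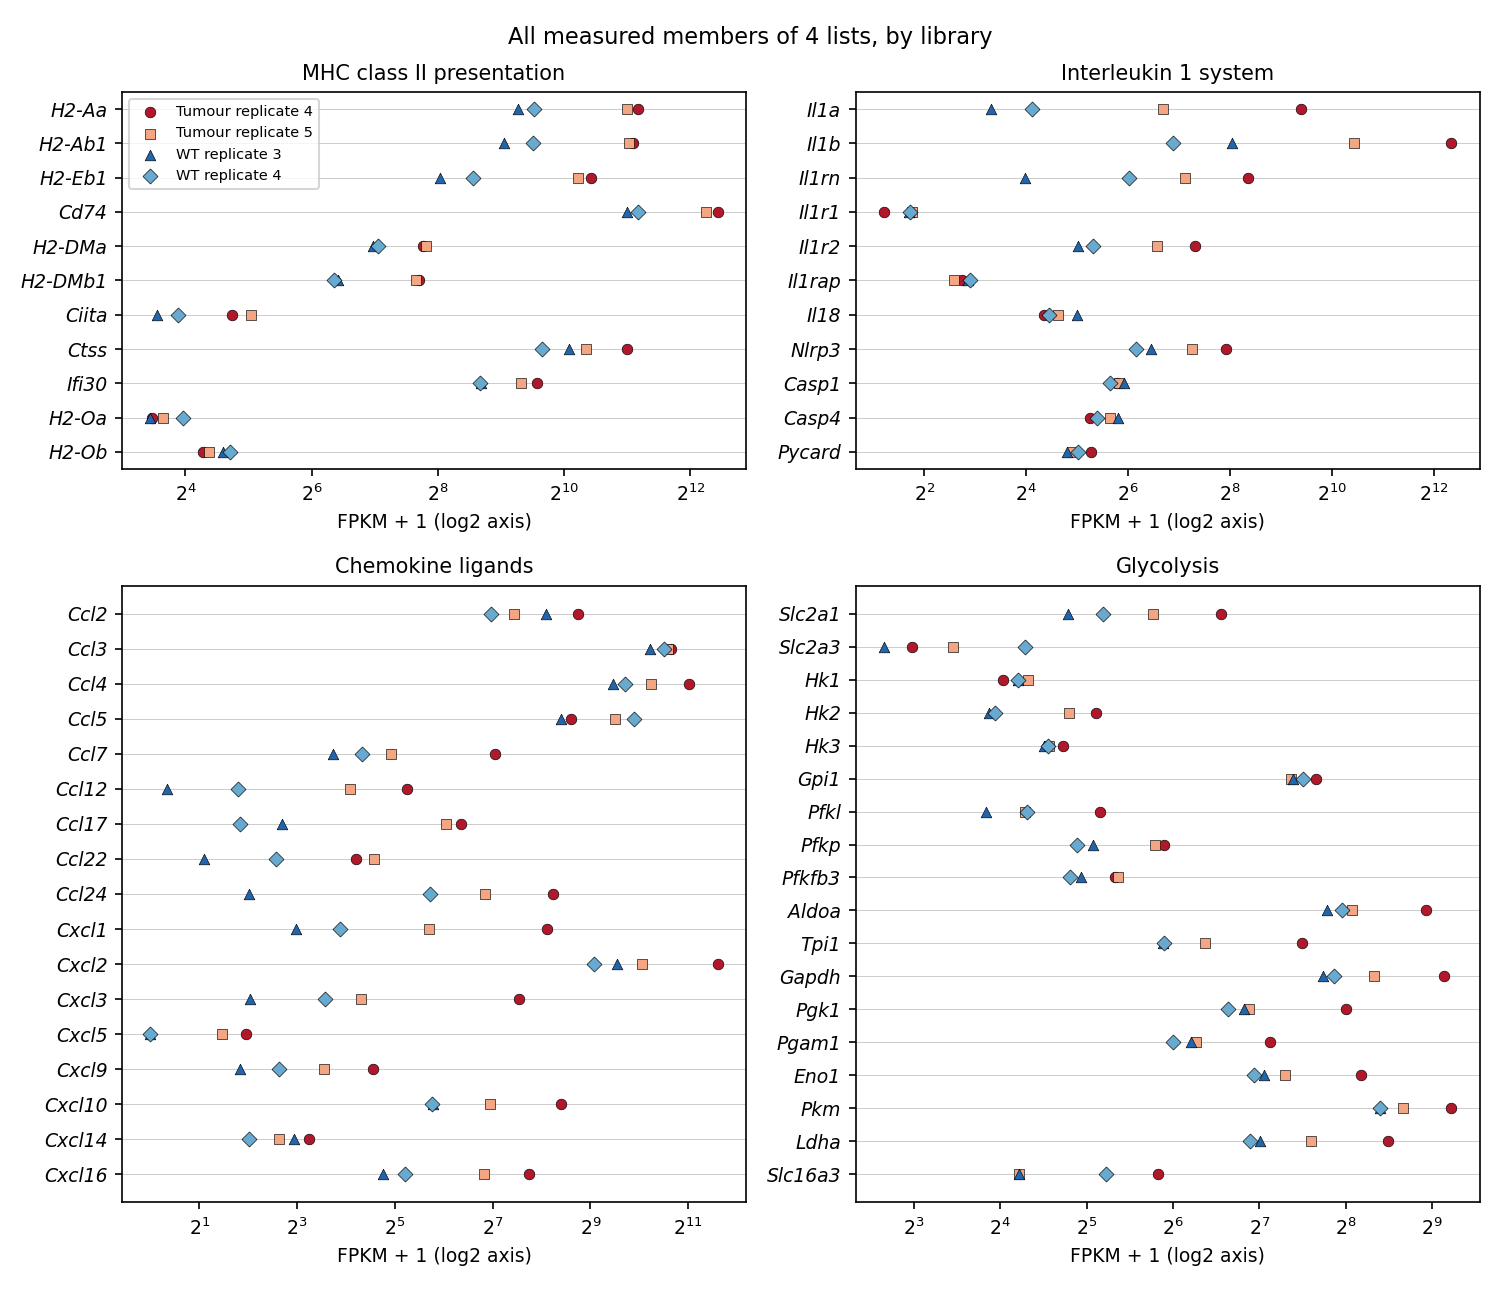
FPKM + 1 (horizontal log2 axis) of every measured gene of 4 lists, 1 symbol per library. The tumour libraries lie close together for the MHC class II genes, while tumour replicate 4 lies well to the right of replicate 5 for Il1a, Il1b, most chemokines and most glycolytic genes.

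Genes of monocyte-derived macrophages were higher in tumour monocytes. Gpnmb, a lysosomal glycoprotein of lipid-laden macrophages, stood at 125 and 59.7 FPKM in tumour and 1.69 and 9.06 in WT libraries (limma, log2 change 4.07, SE 0.67, adjusted p = 0.178). Trem2, a lipid receptor of such cells, stood at 105 and 52.2 FPKM in tumour and 20.8 and 23.7 in WT libraries, and Apoe at 2917 and 1739 FPKM in tumour and 771 and 1065 in WT libraries. C1qa, the A chain of complement C1q, stood at 423 and 228 FPKM in tumour and 36.3 and 109 in WT libraries. WT replicate 4 was above WT replicate 3 in C1qa, and both were below the tumour libraries. Of 19 markers, 15 had both tumour libraries above both WT libraries, against 23.6% of all genes, none had them below, and 5 were separated. Their median log2 change was 1.34, and it was 1.90 without tumour replicate 5 and 0.94 without replicate 4. In sorted tumour macrophages (n = 3) Gpnmb averaged 1367 ± 148 FPKM, Trem2 535 ± 114 and C1qa 1409 ± 259, all above either monocyte library. Apoe, together with Ctsd and Psap, is listed at exactly 0 in all 3 tumour macrophage libraries, so no comparison with that sort was made for them. How much macrophage RNA added to the monocyte values was not tested.

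Alveolar macrophage markers were split, with 5 of 10 tested higher in both tumour libraries, 3 lower and 2 overlapping. Atp6v0d2, a proton pump subunit of macrophages and osteoclasts, stood at 22.02 and 15.03 FPKM in tumour and 0.347 and 0.617 in WT libraries (limma, log2 change 3.70, SE 0.27, adjusted p = 0.0911), and Itgax, which encodes CD11c, at 154 and 113 FPKM in tumour and 24.2 and 40.4 in WT libraries (limma, log2 change 2.04, SE 0.29, adjusted p = 0.172). Fabp5, a fatty acid carrier, stood at 386 and 186 FPKM in tumour and 58.4 and 32.7 in WT libraries. These 3 were separated higher. Atp6v0d2 still stood far below the macrophage sorts, which averaged 339 ± 74.8 FPKM in tumour (n = 3) and 351 ± 2.79 in WT (n = 2). Other genes of resident alveolar macrophages also stood far below the WT macrophage sort, some of them near 0. Cidec stood at 0.312 and 0.201 FPKM in tumour and 0 and 0 in WT libraries, Krt79 at 0.824 and 0.111 FPKM in tumour and 0 and 0.192 in WT libraries, and Fabp1 at 0.758 and 0 FPKM in tumour and 1.58 and 1.14 in WT libraries, where sorted WT macrophages averaged 185 ± 20.2, 221 ± 23.02 and 344 ± 18.2 FPKM (n = 2). Marco, a scavenger receptor, stood at 4.24 and 0.354 FPKM in tumour and 0.0479 and 0.222 in WT libraries. Car4, a carbonic anhydrase, and the fatty acid carrier gene Fabp4 were not near 0 and were a little lower in both tumour libraries, at 10.1 and 8.83 FPKM in tumour and 16.7 and 12.4 in WT libraries, and at 15.3 and 17.3 FPKM in tumour and 19.8 and 21.4 in WT libraries, where WT macrophages averaged 325 ± 45.2 and 125 ± 2.56 FPKM. Cd9, a tetraspanin, overlapped at 385 and 161 FPKM in tumour and 123 and 206 in WT libraries, against 2930.5 ± 122 FPKM in WT macrophages.

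Lysosomal and lipid-handling genes were mostly higher, by small amounts at the median. Of 20 lysosomal genes, 15 had both tumour libraries above both WT libraries and 2 were separated, Ctsk (log2 change 2.63) and Atp6v0d2 (3.70). The median log2 change was 0.36, and it was 0.17 without tumour replicate 4. Ctsd, an aspartic protease of lysosomes, stood at 1223 and 685 FPKM in tumour and 517 and 462 in WT libraries, and Ctsk, the collagen-degrading cathepsin, at 24.2 and 8.02 FPKM in tumour and 0.713 and 2.45 in WT libraries. Psap, the saposin precursor, was nearly level at 2249 and 2101 FPKM in tumour and 2074 and 1800.1 in WT libraries. Of 18 lipid-associated macrophage genes, 15 were higher in both tumour libraries than in both WT libraries, 4 were separated, and all 18 were higher in replicate 4 than in replicate 5. Their median log2 change was 0.77, and it was 1.16 without tumour replicate 5 and 0.41 without replicate 4.

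Clec4n and Vdr were also among the widest gaps. Clec4n, which encodes the fungal mannan receptor dectin-2, stood at 309 and 112 FPKM in tumour and 15.05 and 7.20 in WT libraries (limma, log2 change 4.03, SE 0.54, adjusted p = 0.172). The 2 groups were far apart and WT was low in both libraries. Vdr, the vitamin D receptor, stood at 27.8 and 10.2 FPKM in tumour and 0.487 and 1.11 in WT libraries, and Pdpn, which encodes the platelet ligand podoplanin, at 38.6 and 10.5 FPKM in tumour and 1.15 and 0.969 in WT libraries. AA467197, paired with the human symbol C15orf48 in the deposited table, stood at 282 and 67.3 FPKM in tumour and 0.392 and 9.34 in WT libraries, and had the largest mean change among these genes (log2 change 5.20, SE 1.07, adjusted p = 0.182).

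Glycolytic genes were higher in tumour replicate 4 and less so in replicate 5. Gapdh stood at 562 and 319.8 FPKM in tumour and 213 and 232 in WT libraries, Ldha, lactate dehydrogenase, at 359.6 and 193 FPKM in tumour and 128 and 118 in WT libraries, and Tpi1 at 179 and 81.6 FPKM in tumour and 58.2 and 58.5 in WT libraries. Slc2a1, the glucose transporter GLUT1, stood at 93.2 and 53.7 FPKM in tumour and 26.6 and 35.5 in WT libraries. In all 4 genes replicate 5 lay between replicate 4 and WT. Of 18 genes, 13 had both tumour libraries above both WT libraries, against 23.6% of all genes tested. None had them below and none was separated by 1 log2 unit. The median log2 change was 0.64, and it was 1.07 without tumour replicate 5 and 0.24 without replicate 4. Of 18 hypoxia and angiogenic factors, 8 were higher in both tumour libraries, against 23.6% of all genes, 3 lower, against 24.6%, and 7 overlapped. Their median log2 change was 0.50, and it ranged from 0.13 without tumour replicate 4 to 1.03 without replicate 5, with 0.20 without WT replicate 4 and 0.83 without WT replicate 3. Vegfa, the vascular growth factor, stood at 536 and 254 FPKM in tumour and 199 and 136 in WT libraries, and Hif1a at 96.4 and 36.1 FPKM in tumour and 32.9 and 28.9 in WT libraries. Thbs1, which encodes the anti-angiogenic thrombospondin 1, stood at 2006 and 603 FPKM in tumour and 524 and 408 in WT libraries. In each, replicate 4 was set apart from the other libraries. All 18 members of that list were higher in replicate 4 than in replicate 5, and 1 was separated from WT: Pgf, placental growth factor, at 12.5 and 6.12 FPKM in tumour and 0.834 and 1.59 in WT libraries.

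Keratin genes were higher in tumour monocytes while Epcam, the marker of the epithelial sort, was low. Krt19 stood at 16.5 and 15.8 FPKM in tumour and 1.53 and 1.07 in WT libraries (limma, log2 change 2.90, SE 0.22, adjusted p = 0.0911), Krt8 at 22.5 and 14.8 FPKM in tumour and 2.47 and 1.30 in WT libraries (limma, log2 change 2.77, SE 0.31, adjusted p = 0.14), and Krt18 at 20.8 and 11.98 FPKM in tumour and 1.52 and 2.98 in WT libraries. The tumour libraries were close together and both were above WT. Cdh1, E-cadherin, stood at 18.9 and 12.3 FPKM in tumour and 3.18 and 1.92 in WT libraries, and Spint1, an inhibitor of epithelial surface proteases, at 44.01 and 17.6 FPKM in tumour and 0.857 and 1.54 in WT libraries. Epcam stood at 0.453 and 0.243 FPKM in tumour and 1.20 and 0.195 in WT libraries. Lgals4, a galectin of epithelial cells, stood at 7.20 and 7.28 FPKM in tumour and 3.84 and 6.30 in WT libraries. As a share of the level in sorted tumour epithelial cells, Cdh1 was at 9.87% and 6.43% in tumour replicates 4 and 5. On the same measure Krt18 was at 4.59% and 2.65%, Krt8 at 3.14% and 2.06%, and Krt19 at 2.83% and 2.72%. Lgals4 was at 1.97% and 1.99%, and Epcam at 0.497% and 0.266%. Krt19 also averaged 12.8 ± 0.949 FPKM in tumour and 1.48 ± 0.889 in WT neutrophils (n = 3 each). Of 7 tested members of the list of tumour cell and epithelial genes, 6 were higher in both tumour libraries and 4 were separated, with summed levels of 115 and 85.8 FPKM in tumour and 41.01 and 32.9 in WT libraries. The part of tumour cell RNA in these values was not tested.

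Endothelial genes were lower in tumour monocytes, in step across the list. Cldn5, a tight junction gene, stood at 12.1 and 27.6 FPKM in tumour and 117 and 90.2 in WT libraries (limma, log2 change -2.42, SE 0.39, adjusted p = 0.178), and Cdh5, the endothelial cadherin, at 13.2 and 37.4 FPKM in tumour and 123 and 81.9 in WT libraries. Pecam1 stood at 19.1 and 42.5 FPKM in tumour and 124 and 79.4 in WT libraries, and Tek, the angiopoietin receptor, at 3.31 and 13.4 FPKM in tumour and 52.1 and 33.8 in WT libraries. The order of the libraries was the same in all 4 genes: WT replicate 3 highest, then WT replicate 4, tumour replicate 5 and tumour replicate 4. Of 19 markers, 17 had both tumour libraries below both WT libraries, against 24.6% of all genes, and 11 were separated lower, against 1.17%. The median log2 change was -1.97. It was -2.72 without tumour replicate 5 and -1.33 without replicate 4. In the fit of all 10 groups 15 were called lower, against 5.9% of all genes tested. All 19 were higher in WT replicate 3 than in WT replicate 4. The same markers summed to 204 FPKM in unsorted tumour lung and 953 in unsorted WT lung, as means of 3 libraries each. Cdh5 stood at 127% and 360.5% of its level in unsorted lung in the tumour libraries, and at 182% and 121% in the WT libraries. Relative to unsorted lung, the groups therefore overlapped in this gene. The part of endothelial RNA in the monocyte values was not tested.

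Further genes in the widest gaps below WT stand outside the marker lists. Acer2, an alkaline ceramidase, stood at 2.26 and 11.7 FPKM in tumour and 51.98 and 34.4 in WT libraries, the prostaglandin transporter gene Slco2a1 at 2.54 and 9.18 FPKM in tumour and 32.04 and 27.5 in WT libraries, and the Wnt receptor gene Fzd4 at 2.24 and 4.51 FPKM in tumour and 14.1 and 14.3 in WT libraries. Each showed the same order of libraries as the endothelial genes or a near tie of the WT libraries. Apbb2, which encodes a binding partner of the amyloid precursor protein, stood at 1.12 and 1.11 FPKM in tumour and 8.99 and 13.7 in WT libraries (limma, log2 change -2.52, SE 0.27, adjusted p = 0.131), and the tumour libraries were level.

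Surfactant genes were lower in tumour monocytes, and the WT libraries differed widely from each other. Sftpc, surfactant protein C of alveolar type II cells, stood at 7.76 and 15.8 FPKM in tumour and 1781 and 229 in WT libraries (limma, log2 change -5.72, SE 0.93, adjusted p = 0.178). Sftpa1 stood at 0.270 and 0.320 FPKM in tumour and 103 and 10.00 in WT libraries, Sftpb at 1.27 and 0.780 FPKM in tumour and 135 and 13.4 in WT libraries, and the phosphate transporter gene Slc34a2 at 0.196 and 0.0764 FPKM in tumour and 40.7 and 3.36 in WT libraries. WT replicate 3 was about 3 log2 units above WT replicate 4 in each, and the tumour libraries were near 0 for all but Sftpc. Of 10 tested type II markers, 9 were lower in both tumour libraries and 5 were separated. The median log2 change was -2.94, and it was -1.38 without WT replicate 3, -4.47 without WT replicate 4, -1.51 with a pseudocount of 5 and -4.64 with one of 0.1. Lamp3, a lamellar body gene, stood at 1.33% of its level in sorted WT epithelial cells in WT replicate 3 and at 0.117% in WT replicate 4, and Sftpd at 1.23% and 0.0884%. Napsa, an aspartic protease of type II cells that leukocytes also express, differed less, at 136 and 219 FPKM in tumour and 309.9 and 240.2 in WT libraries. The part of type II cell RNA in these differences was not tested.

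Classical monocyte genes were split, whereas some genes of the patrolling subset were lower. Cd36, a scavenger receptor for oxidised lipids and fatty acids, stood at 35.1 and 46.6 FPKM in tumour and 184 and 133 in WT libraries (limma, log2 change -1.93, SE 0.24, adjusted p = 0.164). Endothelial cells also express it, and sorted WT epithelial libraries carried it at 651 ± 152 FPKM (n = 3). Ace, angiotensin-converting enzyme of patrolling monocytes and lung endothelium, stood at 43.4 and 121 FPKM in tumour and 222 and 179.8 in WT libraries. Of 11 non-classical monocyte genes, 4 were lower in both tumour libraries, against 24.6% of all genes, 1 was separated, and none was higher. Nr4a1, the nuclear receptor required for that subset, overlapped at 1859 and 2013 FPKM in tumour and 1888 and 1431 in WT libraries. Of 12 classical genes 4 were higher in both tumour libraries and 2 lower, against 23.6% and 24.6% of all genes, and 6 overlapped. Among them Fn1, fibronectin, stood at 668 and 279 FPKM in tumour and 216 and 178 in WT libraries. Cd14, the lipopolysaccharide co-receptor, stood at 1313 and 378 FPKM in tumour and 239.5 and 156 in WT libraries. Plac8, a marker of marrow-derived monocytes, overlapped at 1067 and 1706 FPKM in tumour and 2315 and 1512 in WT libraries, and so did S100a4 at 1894 and 1721 FPKM in tumour and 2016 and 1213 in WT libraries. All 12 classical genes were higher in WT replicate 3 than in WT replicate 4.

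Interferon-stimulated genes were split about as all genes were, and immediate early genes were somewhat higher in tumour monocytes. Of 19 interferon-stimulated genes, 4 were higher in both tumour libraries and 4 lower, against 23.6% and 24.6% of all genes. The other 11 overlapped, and the median log2 change was -0.03. Irf7, the amplifier of type I interferon, stood at 83.8 and 181 FPKM in tumour and 198 and 178 in WT libraries, so that the tumour libraries themselves were more than 1 log2 unit apart. Isg15 stood at 138 and 98.7 FPKM in tumour and 84.2 and 84.2 in WT libraries. Cxcl10, which other inflammatory signals also induce, was the separated member, at 337 and 122 FPKM in tumour and 54.3 and 53.1 in WT libraries. Immediate early genes, which tissue dissociation can induce, were high in all libraries. Of 19 tested, 9 were higher in both tumour libraries, 2 lower and 8 overlapped, with a median log2 change of 0.26 that was 0.04 without tumour replicate 5. Fos stood at 3055 and 2805 FPKM in tumour and 2309 and 1855 in WT libraries, and Atf3 at 2375 and 2428 FPKM in tumour and 2215 and 1574 in WT libraries, both above WT by a small margin. Egr2 was the separated member of that list, at 108 and 41.1 FPKM in tumour and 7.88 and 18.4 in WT libraries.

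Several gene groups separated libraries within a group. The NK genes Gzma, granzyme A, and Prf1, perforin, stood at 222 and 589 FPKM in tumour and 295 and 614 in WT libraries, and at 27.2 and 62.5 FPKM in tumour and 28.8 and 52.8 in WT libraries. Tumour replicate 5 and WT replicate 4 were the high libraries for both, and all 9 NK markers overlapped between groups. Prf1 was at 246% and 564% of the unsorted tumour lung level in the tumour libraries and at 83.7% and 153% of the unsorted WT lung level in the WT libraries. Among neutrophil genes, S100a8 stood at 43.8 and 77.04 FPKM in tumour and 10.9 and 666 in WT libraries, S100a9 at 57.7 and 139 FPKM in tumour and 8.93 and 959 in WT libraries, and Camp, cathelicidin, at 2.05 and 29.6 FPKM in tumour and 0.144 and 272 in WT libraries. WT replicate 4 was the high library in all 3, at 2.92% of the level in sorted WT neutrophils for S100a8 and 138% for Camp, while Csf3r, the receptor for granulocyte growth factor, overlapped at 71.8 and 90.9 FPKM in tumour and 78.7 and 62.5 in WT libraries. The percentages of the neutrophil genes thus differed widely within that library. Retnlg, an adipokine-like granulocyte gene, stood at 316 and 42.1 FPKM in tumour and 88.7 and 931 in WT libraries. Scgb1a1, the club cell secretoglobin, was also highest in WT replicate 4, at 13.2 and 60.8 FPKM in tumour and 44.8 and 391 in WT libraries. Cell cycle genes were lowest in WT replicate 3: all 25 tested members were higher in WT replicate 4 than in WT replicate 3, among them Top2a at 5.85 and 5.99 FPKM in tumour and 1.25 and 6.995 in WT libraries.

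In all, 306 of 5876 genes with at least 10 FPKM in either tumour library differed by 1 log2 unit or more between the tumour libraries, and 218 of 5983 did so between the WT libraries. The tumour libraries differed most in Trpt1, an RNA phosphotransferase gene, at 0.958 and 51.5 FPKM in tumour and 6.69 and 2.22 in WT libraries, where replicate 5 stood alone. Cxcl3 was next to Il6, Arg1, Camp and Retnlg among those genes, at 184 and 18.8 FPKM in tumour and 3.10 and 10.9 in WT libraries. The WT libraries differed most in Camp, S100a9, the lactoferrin gene Ltf, S100a8, Scgb3a2 and Igj. Igj, the joining chain of plasma cell antibodies, stood at 41.4 and 41.7 FPKM in tumour and 21.7 and 0.0347 in WT libraries.

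**Figure D4:**
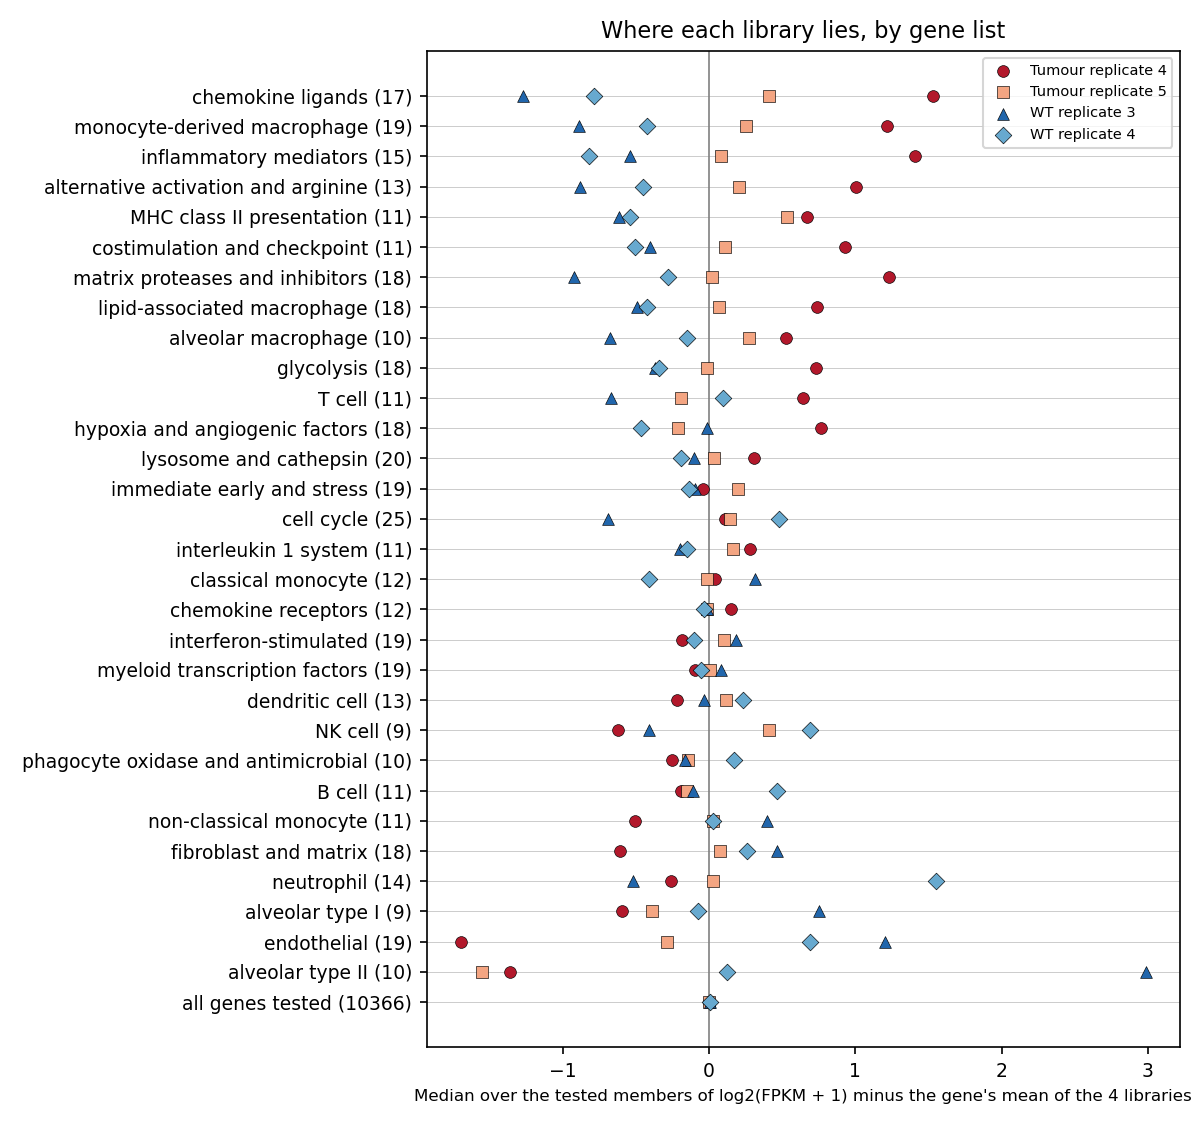
Median over the tested members of each gene list (number in brackets) of log2(FPKM + 1) minus the gene's mean of the 4 libraries (horizontal axis), 1 symbol per library. Chemokines, macrophage genes and inflammatory mediators lie to the right in tumour replicate 4 with replicate 5 in between, MHC class II genes lie to the right in both tumour libraries, endothelial and type II genes lie to the right in the WT libraries, and the NK and neutrophil lists order the libraries within groups.

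The genes that stood higher in tumour monocytes were often still higher in the tumour macrophage sort. The mean of the 3 tumour macrophage libraries exceeded both tumour monocyte libraries in 66 of the 116 separated higher genes (56.9%), against 34.7% of all genes tested. Without the 119 genes listed at 0 in another library, these were 53 of 97 genes (54.6%) and 34.8%. For tumour neutrophils the count was 16 (13.8%), against 15.7%. A monocyte group had the highest mean of the 10 groups of the series in 11 of the 116 (9.48%) and in 54 of the 121 separated lower genes (44.6%), against 13.9% of all genes tested. Endothelial cells had no sort of their own in this series. These shares describe the genes and were not tested.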

How the data were processed

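Base calling by CASAVA 1.8.2, alignment by TopHat2 to mouse mm10 (GRCm38) and quantification by Cufflinks and Cuffdiff are named in the submitters' processing notes, while the annotation is not given in the sources used here. Values are FPKM as the authors deposited them, for 16024 gene symbols in 27 libraries, and all columns were matched to a library by title. Read counts were not analysed here, so depth is unknown and no counting interval is given.

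For the 4 monocyte libraries 1 was added to each FPKM before taking log2, which understates changes of low genes. Genes with FPKM of 1 or more in 2 or more libraries were tested with limma 3.58.1 in R 4.3.3, two-sided, with moderated variances that follow the mean level, and adjusted by Benjamini and Hochberg at 0.05. The fit was tested on simulated data. Tables and figures used Python 3.11.15, numpy 2.4.6, pandas 2.3.3 and matplotlib 3.10.9.

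The text names the 15 genes with the widest gap each way, with at least 10 FPKM in the higher group and without predicted genes, small RNAs, receptor segments and pseudogenes; from each of 35 gene lists the 3 highest members and the 3 with the widest gap; the sort markers; and the 6 genes that differed most within each group. Not every such gene is written out. Genes named to show that members of a list overlapped or were near 0, and Socs3, were chosen after their values were seen. Some results are not reported here. The members, lists and rules were chosen with earlier results of these data known. Of 555 list entries, 495 were found. Each result was recomputed with pseudocounts of 0.1 and 5, without the filter and with one at 5 FPKM, with quantile or upper-quartile scaling, fits of all 10 or the 6 myeloid groups, robust or untrended empirical Bayes and each library left out. Leaving out genes higher in another group, and leaving genes listed at 0 elsewhere out of the fit of 10 groups, were added after the data were seen.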

Additional observations from a re-analysis of the deposited data

Results flagged for a closer look

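Krt19 and Apbb2, both among the widest gaps, went the opposite way in the macrophage sorts, where every tumour library lay on the other side of every WT library by at least 1 log2 unit. Krt19 was higher in tumour monocytes (log2 change 2.90) and lower in tumour macrophages (log2 difference -5.15), with 9.88 ± 1.48 FPKM in tumour (n = 3) and 382 ± 27.3 in WT macrophages (n = 2). Apbb2 was lower in tumour monocytes (-2.52) and higher in tumour macrophages (3.06), with 9.89 ± 4.01 and 0.239 ± 0.0450 FPKM. The macrophage gates differed in CD11b between tumour and WT lung, and neither difference between populations was tested.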

How the results depend on the processing

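No alternative within the 4 libraries called any gene except the leaving out of a library, while fits that share the spread of other populations called many. By limma, 540 genes were higher and 612 lower in the fit of all 10 groups, and 567 and 680 in the fit of the 6 myeloid groups, with 1283 and 1357, and 1320 and 1431, at an unadjusted p under 0.05. Without the genes listed at exactly 0 in another library, a setting chosen after seeing the data, the fit of all 10 groups gave 499 and 588, with 1241 and 1340 at an unadjusted p under 0.05. Leaving out a library, where the lone library of a group is assumed to vary like the other group, gave 0 to 87 genes called higher and 0 to 74 lower. The most came without tumour replicate 5, with 1 higher without WT replicate 3 and 5 lower without WT replicate 4. At an unadjusted p under 0.05 these fits gave 285 to 773 higher and 341 to 852 lower, the fewest without tumour replicate 4. Separated genes numbered 122 to 401 higher and 140 to 463 lower with a library left out, which can only keep or raise these counts. With a pseudocount of 5 they numbered 70 and 39, and with 0.1 there were 168 higher and 212 lower. Among the 1439 genes whose highest group mean was in monocytes, a further setting chosen after seeing the data, 11 were separated higher and 54 lower, with 81 and 194 at an unadjusted p under 0.05. Of 1931 values for 137 named genes whose groups did not overlap, 1 reversed, the log2 change of Tyrobp, which was -0.0497 after quantile normalization. Such genes keep their sign when a library is left out or the pseudocount, filter or fit is changed, so only scaling could reverse them. The count is therefore no test of how stable the named genes are. No paired analysis was possible because the groups share only the number 4 in their labels. With 2 residual degrees of freedom and unknown depth, a difference that did not pass limma is not shown to be absent.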

Other observations

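Dendritic cell markers were mixed in tumour monocytes. Of 13 tested, 4 were higher in both tumour libraries and 4 lower, against 23.6% and 24.6% of all genes. Ccl17, Ccl22 and Itgax made up the separated ones, while Flt3, the growth factor receptor of dendritic cells, stood at 7.07 and 16.8 FPKM in tumour and 19.6 and 23.9 in WT libraries, and Clec9a, a receptor for dead cells on cross-presenting dendritic cells, at 1.94 and 5.48 FPKM in tumour and 8.38 and 8.16 in WT libraries. Irf8, a transcription factor of both lineages, overlapped at 79.8 and 109.9 FPKM in tumour and 103 and 138 in WT libraries. Of 19 myeloid transcription factors, 13 overlapped, against 5365 of all 10366 genes tested, 3 were higher in both tumour libraries and 3 lower. None was separated, where few of all genes were (1.12% higher and 1.17% lower). Klf4, required for monocyte development, stood at 319.7 and 441 FPKM in tumour and 489 and 410.1 in WT libraries, and Klf2, a factor of quiescent leukocytes, at 203 and 289 FPKM in tumour and 345 and 394 in WT libraries.

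Phagocyte oxidase genes went both ways. Cybb, the catalytic subunit, was lower in both tumour libraries and stood at 176 and 188 FPKM in tumour and 293 and 203 in WT libraries, and its partner Cyba was higher in both, at 876 and 639.6 FPKM in tumour and 595 and 573 in WT libraries. B cell markers summed to 189 and 190.3 FPKM in tumour and 199 and 294 in WT libraries, with Cd79a at 55.1 and 52.6 FPKM in tumour and 56.7 and 86.4 in WT libraries, and T cell markers to 210.5 and 138 and 121 and 183, with Cd3e at 9.31 and 4.81 FPKM in tumour and 3.12 and 6.80 in WT libraries. No gene with at least 10 FPKM in the 3 other monocyte libraries was listed at exactly 0 in the remaining one.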
